A study of Mus musculus with 6 samples.

Results

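The circadian clock genes measured here are Per1, Per2, Per3, Cry1, Cry2, Clock, Dbp, Tef, Nr1d1 and Nr1d2, taken by symbol from the annotation of a whole-genome mouse GeneChip array of Affymetrix. Every probeset annotated to 1 of these 10 genes alone was used, which gave 24 of the 45101 probesets of the array. A probeset is a group of short probes that reads 1 stretch of a messenger RNA, usually near its 3′ end. Of the 24, 23 passed the filter on dim probesets, as did 31076 probesets of the whole array. Per1, Cry1, Cry2 and Nr1d1 have 1 probeset each, and the other genes have from 2 (Dbp and Nr1d2) to 6 (Per3).

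The RNA came from homogenized hippocampus of 3 Glud1 transgenic (Tg) and 3 wild type (wt) mice, with 1 array per mouse. All were untreated males of the C57BL/6 background, 9 months old and kept under alternating light and dark. The Tg mice carry an added gene for glutamate dehydrogenase 1, Glud1, driven in neurons by the promoter of neuron-specific enolase. The comparison asks what a lifelong moderate excess of released glutamate does to transcripts of the hippocampus. The values are MAS5 signals, a linear intensity per probeset. Glud1 itself did not set the Tg arrays above the wt arrays: its log2 differences (Tg minus wt) were -0.15 (SE 0.0815, adjusted p = 0.595 by limma) and -0.087 at its 2 probesets. At the former every Tg array lay below every wt array, as held for 6.67% of all probesets that passed the filter. At the latter the groups overlapped. Whether these probes read the message of the added gene is not known here, so Glud1 gives no check of the labels, and Tg and wt stand for the arrays so labelled. The hour at which the mice were dissected is not given in the sources used here, so with a single sampling a change in the daily mean of a rhythmic transcript and a change in its timing cannot be told apart. In whole tissue, fewer cells of a type and less RNA per cell cannot be told apart either.

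The circadian clock is a feedback loop of transcription. CLOCK and its partner ARNTL (also called BMAL1) bind E-boxes and drive the Per and Cry genes, whose proteins return to the nucleus and inhibit that pair, and over the course of a day they are degraded so that the loop starts again. A second loop joins it: NR1D1 and NR1D2, also called REV-ERB alpha and beta, repress Arntl through ROR elements, while DBP and TEF carry the rhythm to output genes through D-boxes. The hippocampus, like most brain regions, has its own clock, which is set by the master clock of the suprachiasmatic nucleus and has been tied to memory.

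The binding elements in the promoters of these genes are shown because they tie the members to each other. RefSeq promoters of build GRCm38.p6, each 300 bases from 250 before to 50 after a start site, were available for 9 of the 10 genes, 13 promoters in all. An E-box, CACGTG, was found in 4 of these 13, in Per1, Cry1 and both promoters of Tef, against 7.15% of all 32851 promoters of the table. The E-boxes are in capitals in the following stretches, each written 5′ to 3′ on the strand of its gene.
Per1, chr11:69098765-69098806, plus strand: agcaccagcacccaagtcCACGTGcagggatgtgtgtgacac
Cry1, chr10:85185091-85185132, minus strand: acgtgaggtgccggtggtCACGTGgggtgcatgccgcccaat
Tef, upstream promoter, chr15:81802528-81802569, plus strand: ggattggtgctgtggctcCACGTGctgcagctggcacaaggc
Tef, downstream promoter, chr15:81811258-81811299, plus strand: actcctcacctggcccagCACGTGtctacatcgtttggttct

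The related element CACGTT, or AACGTG on the other strand, was found in 3 of the 13, in Cry1, Cry2 and Nr1d1, against 4.68% of all promoters. No copy shared bases with a CACGTG. Of these, only the stretch from Cry2 is printed, a choice that rests on its signals. Its Tg arrays all lay above its wt arrays, which held for 2 of the 23 kept clock probesets, against 8.58% of all. Its adjusted p was 0.621 by limma.
Cry2, chr2:92434212-92434253, minus strand: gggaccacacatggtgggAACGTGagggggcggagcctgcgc

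A D-box, searched as TTATGTAA or TTACGTAA on both strands, was found in 1 of the 13, in Per3, which holds it at 2 places, against 1.06% of all promoters. Both copies are in capitals.
Per3, chr4:151044798-151044888, minus strand: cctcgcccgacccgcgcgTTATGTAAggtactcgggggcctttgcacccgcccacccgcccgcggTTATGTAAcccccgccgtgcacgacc

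A ROR element, searched as TAGGTCA or TGGGTCA on both strands, and the cAMP element TGACGTCA were in none of the 13, against 6.45% and 1.79% of all promoters. These matches describe letters in a short window and say nothing of binding in this tissue.

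The clock genes differed little between Tg and wt hippocampus. At the brightest probeset of each gene, 7 of 10 had a positive log2 difference (Tg minus wt, on log2(signal + 16)) and 3 a negative one, with a median of 0.13, beside a median of -0.031 over all 13854 genes at their brightest probeset. The median of the 10 was -0.0020 without wt 1 and 0.00012 without Tg 3, with 5 positive differences in each case. With the mean of all kept probesets of a gene, 9 of the 10 differences were positive. The differences ran from -0.20 for Per2 to 0.17 for Nr1d1. All 10 of the 95% intervals from limma held 0, and 7 of them lay wholly within a 1.5-fold change in either direction, while the widest reached 1.71-fold. limma called 0 of the 23 probesets at an adjusted p under 0.05, and it called 0% of all 31076. At an unadjusted p under 0.05 there was 1 of the 23, a probeset of Tef, against 9.69% of all kept probesets. A difference of at least 1.3-fold was likewise seen for that probeset alone, against 22.5% of all. This count rests on the added constant of 16: with a constant of 1 it was 3 of the 23, with 1457350_at of Per2 and 1438033_at of Tef, against 26.3% of all. Cyber-T, a test that the study used, called 0 of the 23 and 65 of all. All Tg arrays lay above all wt arrays for 2 of the 23, at Cry2 and at the same Tef probeset, against 8.58% of all kept probesets, and all lay below for 0, against 6.67%. These shares are near or under those of the whole array.

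**Figure D1:**
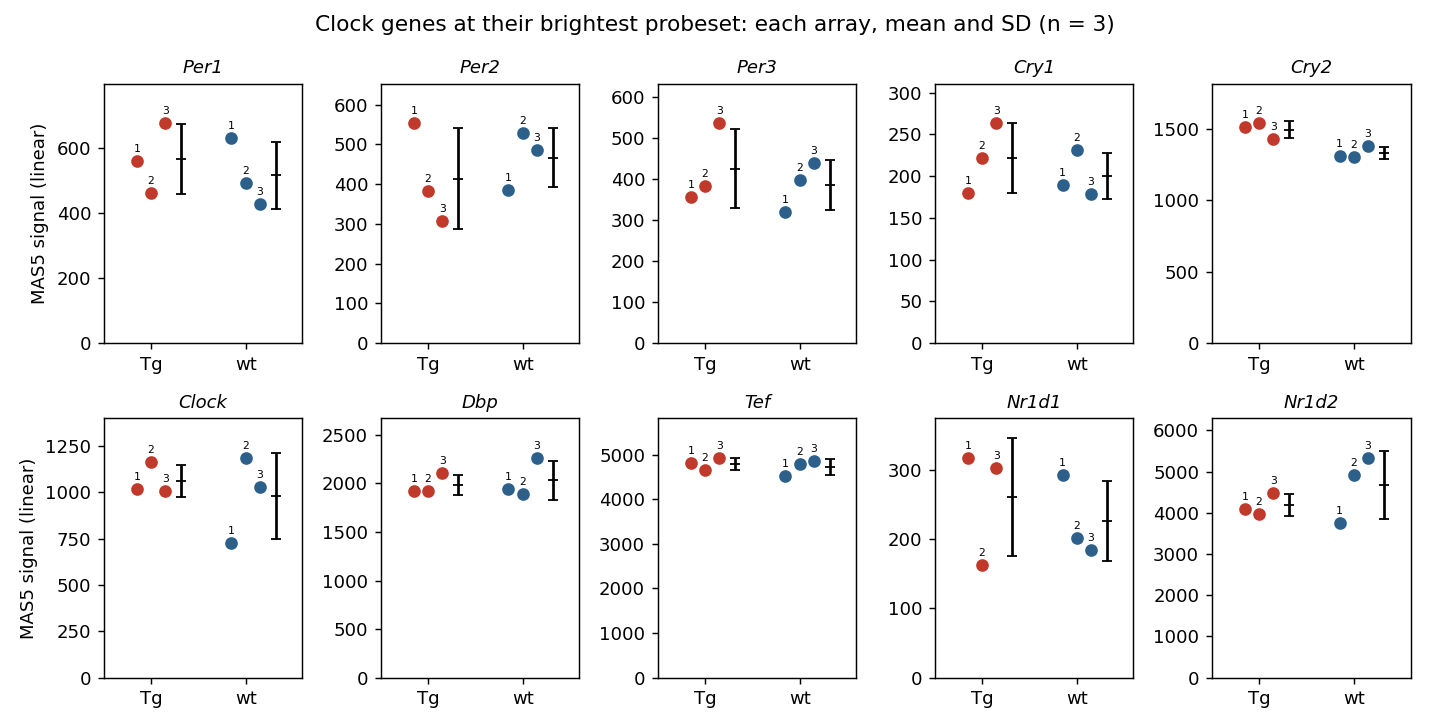
MAS5 signal (linear, from 0) of the 10 clock genes at their brightest probeset on each Tg (red) and wt (blue) array, numbered by mouse, with the mean and SD of 3 arrays beside the points. The groups overlap for every gene but Cry2, where the 3 Tg arrays lie between 1430.5 and 1542.6 and the 3 wt arrays between 1304.2 and 1382.

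Clock encodes the DNA-binding activator of the loop. At its brightest probeset, 1418659_at, the signals were 1017, 1163.2 and 1007.7 on Tg 1, Tg 2 and Tg 3, and 729.5, 1186.5 and 1030 on wt 1, wt 2 and wt 3. The low value was that of wt 1, and wt 2 was the highest of all arrays, so the groups overlapped. The log2 difference was 0.14 (SE 0.163, adjusted p = 0.821), and without wt 1 it was -0.059. A second probeset, 1435775_at, gave 955 ± 160 in Tg against 888 ± 38.3 in wt mice (SD, n = 3). At 1418660_at the means were 768 ± 118 and 876 ± 16.7, a log2 difference of -0.20. The dimmest, 1439314_at, gave 229 ± 69.0 and 219 ± 58.2. The 4 Clock probesets therefore showed 3 positive differences and 1 negative one, with overlapping groups at each.

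The Per genes encode the negative limb of the loop. Per1 responds within an hour or so to neuronal activity and to glucocorticoids in many tissues, in addition to its rhythm. Its only probeset, 1449851_at, had signals of 559.1, 462.9 and 676.6 on the Tg arrays and 629.6, 491.6 and 427.9 on the wt arrays in the order of their numbers. The highest array was Tg 3 and the lowest wt 3, and the groups overlapped. Tg mice averaged 566 ± 107 and wt mice 516 ± 103 (SD, n = 3), which is 0.13 on the log2 scale (SE 0.184, 95% interval -0.27 to 0.53, adjusted p = 0.851). Without Tg 3 the difference was -0.0031, and without wt 1 it was 0.28.

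Per2, whose protein also brings CRY into the repressor complex, went both ways. At the brightest probeset, 1417602_at, the Tg arrays read 553.5, 382 and 305.9 and the wt arrays 384.3, 529.7 and 486.1. Tg 1 was the highest of all arrays and Tg 3 the lowest, so the Tg arrays spanned the wt arrays. The log2 difference there was -0.20 (SE 0.215, adjusted p = 0.802). At 1457350_at the Tg arrays read 121.2, 222.4 and 255.8 and the wt arrays 162.7, 166.1 and 110.1, a log2 difference of 0.37. At 1417603_at they read 155.6, 150.7 and 96.1 against 97.6, 98.6 and 109.3, a log2 difference of 0.33. The groups overlapped at both. At 1457350_at Tg 1 was low and Tg 3 high, the reverse of the brightest probeset, while at 1417603_at Tg 3 was again the lowest. The mean of the 3 Per2 probesets had a log2 difference of 0.17 (adjusted p = 0.823). The study also names Per2 among the up-regulated genes of a functional group drawn from these same samples, so that listing is not independent evidence.

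Per3, a paralogue that is less needed for the rhythm itself, has 6 probesets. The brightest, 1458176_at, read 356.6, 382.9 and 535.7 on the Tg arrays and 319.5, 397.6 and 438.3 on the wt arrays. Tg 3 stood above all others, and the remaining Tg arrays lay inside the wt range. limma gave a log2 difference of 0.13 (SE 0.195, adjusted p = 0.867), and it was -0.046 without Tg 3. The log2 difference was -0.045 at 1421087_at, -0.21 at 1441445_at, 0.038 at 1442243_at and 0.14 at 1460662_at, with overlapping groups at each. The probeset left out as dim, 1421086_at, ranged from 1.8 to 109.7 over the arrays and was not tested.

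Cry1 and Cry2 encode the cryptochromes, the strongest repressors of the CLOCK and ARNTL pair. Cry1, at 1433733_a_at, read 179.6, 221.3 and 263.5 on the Tg arrays and 189.9, 231 and 178.7 on the wt arrays, so the groups overlapped. Its log2 difference was 0.13 (SE 0.229, adjusted p = 0.885), and 0.0047 without Tg 3. Cry2, at 1426383_at, read 1518.4, 1542.6 and 1430.5 on the Tg arrays and 1311.7, 1304.2 and 1382 on the wt arrays. Every Tg array lay above every wt array, by a narrow margin between Tg 3 and wt 3. Tg mice averaged 1497 ± 59.0 and wt mice 1333 ± 42.9 (SD, n = 3), a 1.12-fold difference. On the log2 scale it was 0.17 (SE 0.0989, 95% interval -0.050 to 0.38, adjusted p = 0.621). Leaving out each array in turn gave values from 0.14 to 0.20, and centring each array on its median gave 0.100.

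**Figure D2:**
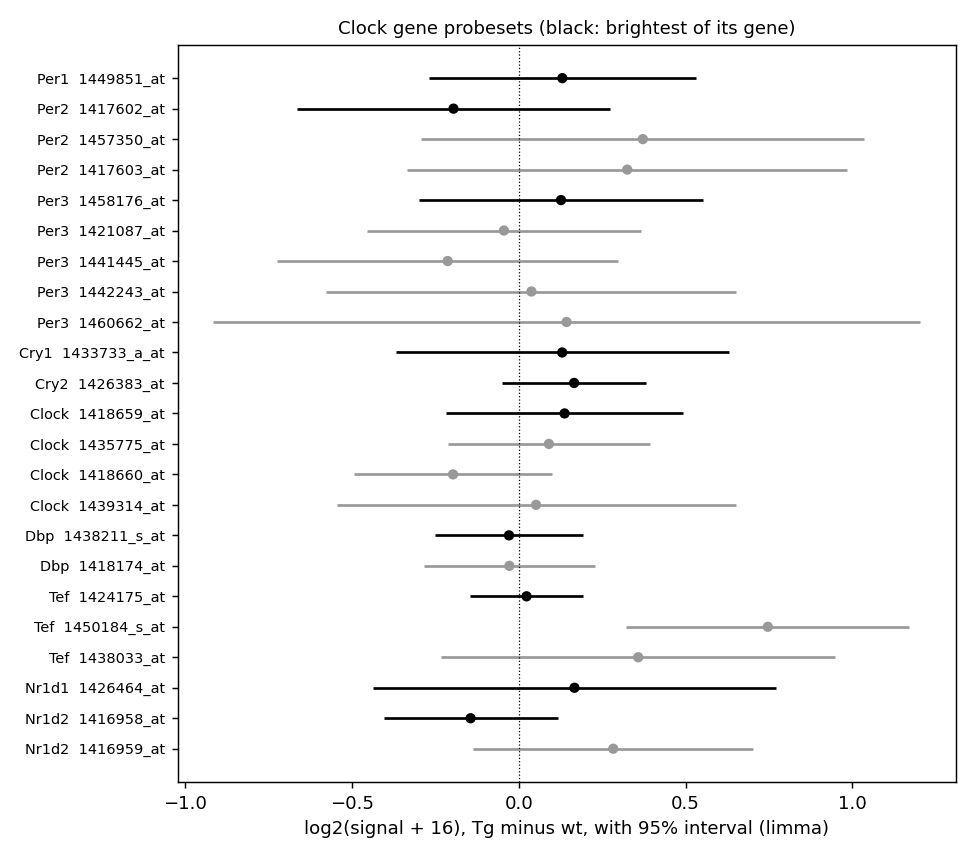
Log2 difference (Tg minus wt, on log2(signal + 16)) of the 23 kept probesets of the clock genes with its 95% interval from limma, in black for the brightest probeset of each gene and in grey for the others. All black intervals cross 0, and the grey one of Tef at 1450184_s_at, from 0.32 to 1.17, does not.

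Dbp and Tef belong to the PAR bZIP transcription factors, which bind D-boxes, and Dbp is among the transcripts with the widest daily swing in most tissues. Dbp at 1438211_s_at read 1924.9, 1925.8 and 2103.8 on the Tg arrays and 1938.5, 1892.5 and 2261.7 on the wt arrays. The 6 mice differed by at most 1.20-fold, wt 3 was the highest, and the groups overlapped. Between the groups the log2 difference was -0.030 (SE 0.102, 95% interval -0.25 to 0.19, adjusted p = 0.945). At 1418174_at Tg mice averaged 1004 ± 80.3 and wt mice 1024 ± 75.1 (SD, n = 3), and the log2 difference was -0.028. Both probesets thus gave the same small value, and without wt 3 it was 0.050 at the brightest one. The suffix of 1438211_s_at marks probes that can match more than 1 transcript.

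Tef had positive differences at all 3 probesets, of unequal size. At the brightest, 1424175_at, the signals were 4803.7, 4656.8 and 4928.2 on the Tg arrays and 4523.6, 4790.3 and 4848.7 on the wt arrays. The groups overlapped and the highest and lowest arrays differed by 1.09-fold. limma gave 0.023 on the log2 scale (SE 0.0774, 95% interval -0.15 to 0.19, adjusted p = 0.944). With each array centred on its median it was -0.043, and without wt 1 it was -0.0073.

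At 1450184_s_at, whose suffix likewise marks probes that can match more than 1 transcript, the Tg arrays read 843.8, 1134.8 and 1278.8 and the wt arrays 681.5, 472.2 and 780.5. Every Tg array lay above every wt array, with Tg 1 close to wt 3 and wt 2 the lowest. Tg mice averaged 1086 ± 222 and wt mice 645 ± 157 (SD, n = 3), a 1.68-fold difference. On the log2 scale it was 0.75 (SE 0.195, 95% interval 0.32 to 1.17, adjusted p = 0.245). This was the smallest adjusted p among the clock genes and did not pass the threshold. With Cyber-T the adjusted p was 0.0824, and over all alternatives it ran from there to 0.655, with log2 differences from 0.45 to 0.92, all positive. The study lists this probeset among those it chose on these same samples, so its direction is not independent evidence, and it was singled out here after its values were seen.

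The third Tef probeset, 1438033_at, read 178.1, 189.6 and 241.4 on the Tg arrays and 175.9, 106.5 and 191.6 on the wt arrays. The groups overlapped, and wt 2 was the lowest here too. Its log2 difference was 0.36 (SE 0.271, adjusted p = 0.701). Within each array, the log2 signal at 1450184_s_at minus that at 1424175_at was computed, and it was -2.15 ± 0.298 in Tg against -2.87 ± 0.374 in wt mice (SD, n = 3). This follows from the values already given and is no further test. RefSeq gives Tef both promoters printed above. Which of the Tef messages each probeset reads was not tested.

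**Figure D3:**
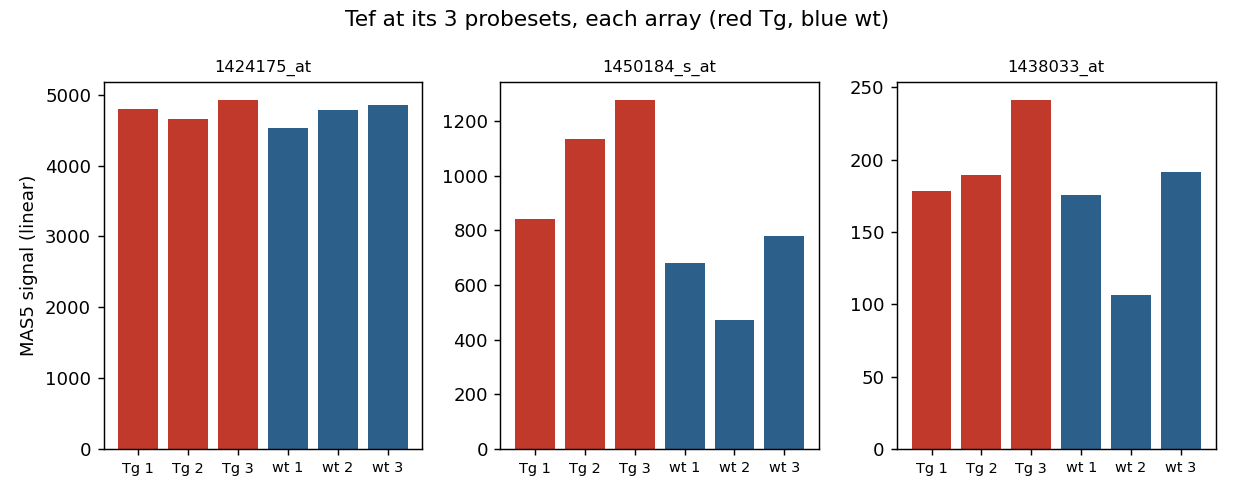
MAS5 signal (linear, from 0) of Tef on each Tg (red) and wt (blue) array at its 3 probesets, 1 bar per array. The bars are level at 1424175_at (4523.6 to 4928.2), whereas at 1450184_s_at the Tg bars (843.8 to 1278.8) all exceed the wt bars (472.2 to 780.5).

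Markers of hippocampal regions and cell types were read in the same way. Of all 13854 genes at their brightest probeset, 6102 (44%) had positive log2 differences and 7752 negative ones. Of 10 genes that mark granule cells of the dentate gyrus, 10 had positive log2 differences, and their summed signal ran from 19564 to 21831 among Tg and from 15313 to 19866 among wt arrays. Of 9 markers of the neighbouring retrohippocampal cortex, 6 had negative differences, with sums from 7165 to 8677 among Tg and from 8999 to 9826 among wt arrays. Of 8 markers of CA pyramidal cells, 7 had positive differences, with sums from 12515 to 14767 among Tg and from 11911 to 12449 among wt arrays. Of 8 astrocyte markers, 7 had negative differences, with sums from 76571 to 81829 among Tg and from 83350 to 87585 among wt arrays. Microglial markers, 5 of 8 with negative differences, summed to between 12721 and 13270 among Tg and between 13694 and 14862 among wt arrays. A sum mostly follows its brightest genes. On the log2 scale, the mean deviation of these 8 genes from their means over the 6 arrays overlapped between the groups. It ran from -0.086 to -0.011 among Tg and from -0.037 to 0.12 among wt arrays. Endothelial and mural markers had negative differences for 7 of 8, with overlapping sums. Their mean deviations did not overlap, at -0.34 to 0.071 among Tg and 0.091 to 0.11 among wt arrays. For the granule cell markers too, the sums overlapped and the mean deviations did not (0.16 to 0.32 among Tg, -0.45 to 0.028 among wt arrays). Of 7 oligodendrocyte markers, 5 had negative differences, with sums from 61441 to 76196 among Tg and from 63927 to 76379 among wt arrays. The 7 choroid plexus markers summed to between 4644 and 67931 among Tg and between 48407 and 55015 among wt arrays. The control signal of 18S ribosomal RNA was 13960, 10375 and 2287 on wt 1, wt 2 and wt 3 and at most 3313 on the Tg arrays. The ratio of the 3′ to the 5′ control signal of actin was 1.64, 1.67 and 1.69 on Tg 1, Tg 2 and Tg 3. On wt 1, wt 2 and wt 3 it was 1.86, 1.95 and 1.70, so the groups did not overlap. The median signal of the kept probesets did not overlap either, at 310 to 319 among Tg and 297 to 305 among wt arrays. None of the cell markers was at 0. The part of these markers and control values in the values of Tef, Cry2 and the other clock genes was not tested. Without both wt 1 and wt 2, a comparison added after seeing the data that leaves 1 wt array and no test, the log2 difference was 0.45 for Tef at 1450184_s_at and 0.11 for Cry2.

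Nr1d1 and Nr1d2 encode the heme-binding nuclear receptors that repress Arntl. Nr1d1, at 1426464_at, read 317.1, 162.9 and 302.4 on the Tg arrays and 292.4, 201.5 and 184 on the wt arrays. It varied most among the clock genes at their brightest probeset, 1.86-fold between Tg 1 and Tg 2 on signal + 16, and its groups overlapped. The log2 difference was 0.17 (SE 0.277, 95% interval -0.44 to 0.77, adjusted p = 0.878), and it ranged from 0.0064 without Tg 1 to 0.45 without Tg 2. Nr1d2, at 1416958_at, read 4095.8, 3976.3 and 4483.1 on the Tg arrays and 3755, 4930.4 and 5333.5 on the wt arrays. Here wt 1 was the lowest and wt 3 the highest, so the wt arrays spanned the Tg arrays. limma gave a log2 difference of -0.14 (SE 0.120, adjusted p = 0.727), and without wt 1 it was -0.29 (adjusted p = 0.262). At 1416959_at Nr1d2 read 333.5, 314.2 and 378.2 on the Tg arrays and 250.9, 248.7 and 341.5 on the wt arrays. Only wt 3 reached into the Tg range there. The log2 difference at that probeset was 0.28 (adjusted p = 0.665), and the mean of both probesets gave 0.069. Of the 6 clock genes with several kept probesets, 4 (Per2, Per3, Clock and Nr1d2) had probesets on both sides of 0.

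No order of the mice was shared by all the clock genes. Tg 3 lay above the gene's own mean over the 6 arrays for 8 of the 10 genes and wt 1 for 2. The other arrays did so for 3 to 6 genes. Tg 3 was the highest array for 4 of the 10 genes (Per1, Per3, Cry1 and Tef) and the lowest for Per2. wt 1 was the lowest for 4 (Per3, Clock, Tef and Nr1d2) and above the mean of the 6 arrays for Per1 and Nr1d1. Per1 and Nr1d1 had the same 3 arrays above their means, Tg 1, Tg 3 and wt 1, which mixes genotypes. The mean deviation over the 10 genes lay between -0.098 (wt 1) and 0.11 (Tg 3) on the log2 scale. The range over the 6 arrays was 0.12 for Tef, 0.24 for Cry2 and 0.26 for Dbp on the log2 scale, at percentiles 0.512, 6.2 and 7.49 of the ranges of all kept probesets. For Nr1d1 it was 0.90, at percentile 62.8. These percentiles were not matched for signal level. By mean level Tef, Cry2 and Dbp stood at percentiles 97, 88.7 and 92 of the array, and Nr1d1 at 61.4.

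**Figure D4:**
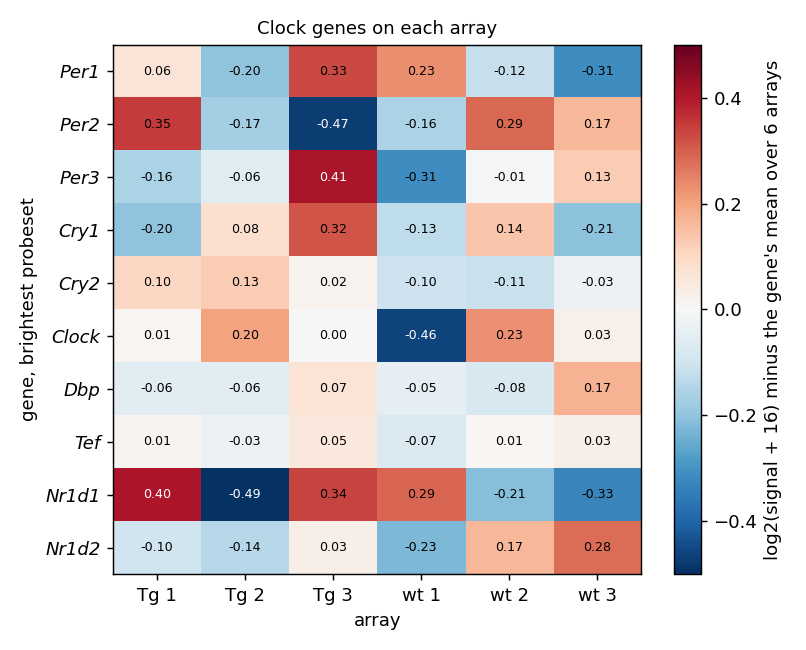
Log2(signal + 16) of each clock gene at its brightest probeset, minus that gene's mean over the 6 arrays, for each Tg and wt array (colour and number). Rows for Tef, Cry2 and Dbp are pale, with a range of at most 0.26, while Nr1d1 runs from -0.49 on Tg 2 to 0.40 on Tg 1 and no column is raised or lowered throughout.

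Over the 6 arrays, the genes whose log2 values followed Dbp most closely were Med17 (Pearson r = 0.979), Mavs (0.974), Osbpl11 (0.966), Dmp1 (0.963) and Ung (0.960), out of 13853. The correlation with Dbp exceeded 0.9 for 45 genes. None of the other genes of the set was among them, and the nearest were Nr1d2 and Per3, with r of 0.632 and 0.630, at ranks 713 and 724. These values describe 6 arrays only, and wt 3 had the highest value of Dbp and of each of those 5 genes.

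The wider clock machinery was read from a list of 23 further genes, of which 20 had a kept probeset. At the brightest probeset 12 of the 20 had a positive and 8 a negative log2 difference, with a median of 0.030. With each array centred on its median, 9 were positive and the median was -0.037. limma called 0 of the 20, Cyber-T called 0, and 3 had an unadjusted p under 0.05, against 7.81% of all genes at their brightest probeset. The genes named next, other than Rorb and Wee1, were chosen for their roles or after their values were seen. Among the activators, Arntl read 810.6, 717 and 658.5 on the Tg arrays and 755.2, 739.8 and 624.7 on the wt arrays. Its log2 difference was 0.043 (SE 0.138, adjusted p = 0.940). At the second, dimmer Arntl probeset the Tg arrays read 244.1, 243.1 and 233.6 and the wt arrays 210.8, 141.5 and 151.9. Every Tg array lay above every wt array there, with a log2 difference of 0.50 (adjusted p = 0.518 by limma). Npas2, which can take the place of CLOCK in the forebrain, averaged 370.4 ± 131 (Tg) against 323 ± 73.1 (wt) (SD, n = 3). Hlf, another PAR bZIP factor, had 2306 ± 278 and 2599 ± 254, a log2 difference of -0.17.

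Rorb, a nuclear receptor that activates through ROR elements and is also on the list of retrohippocampal markers, read 1059.6, 962.7 and 1261.2 on the Tg arrays and 951.4, 623.8 and 891.2 on the wt arrays. The Tg arrays lay above the wt arrays, Tg 2 by little over wt 1, with a log2 difference of 0.42 (SE 0.166, adjusted p = 0.447). At the other kept Rorb probesets the groups overlapped, with log2 differences of 0.43 and 0.18. Wee1, a kinase of the G2 checkpoint with E-boxes under clock control, read 435.7, 546.6 and 598.6 on the Tg arrays and 625.7, 863.7 and 740 on the wt arrays. The Tg arrays all lay below, with a log2 difference of -0.48 (SE 0.165, adjusted p = 0.368). At the second Wee1 probeset the groups overlapped and the log2 difference was -0.078. Bhlhe40 and Ciart, which encode repressors acting at E-boxes, had all Tg above all wt arrays at log2 differences of 0.38 (SE 0.120, adjusted p = 0.335) and 0.30 (SE 0.209, adjusted p = 0.671). Over all 58 kept probesets of this list, Tg arrays lay above wt arrays for 11 and below for 3, beside 8.58% and 6.67% of all kept probesets. An unadjusted p under 0.05 by limma was seen for 10 of the 58, beside 9.69% of all kept probesets.

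Because Per1 belongs to the genes that neurons switch on with activity, its values are given beside those of the immediate early genes. Of 11 immediate early genes, 11 had positive log2 differences (median 0.60), 10 had an unadjusted p under 0.05, against 7.81% of all genes, and limma called 0. The Tg arrays lay above the wt arrays for 7, Fos, Fosb, Junb, Egr2, Arc, Nr4a1 and Npas4, against 5.19% of all genes (8.80% lay below). Without wt 1 the median was 0.38 and 6 had an unadjusted p under 0.05, and 6 did so without Tg 3. Without both wt 1 and wt 2, which leaves 1 wt array and no test, the median was 0.26. Fos read 1403.8, 1930.1 and 2036 on the Tg arrays and 458.7, 939 and 1240.6 on the wt arrays, a log2 difference of 1.10 (SE 0.279, adjusted p = 0.235). Its lowest array was wt 1, where Per1 was the second highest of the 6, and the mean deviation of the 11 genes on wt 1 was -0.78 on the log2 scale. That mean was -0.44 on wt 2, 0.11 on wt 3 and from 0.27 to 0.46 among the Tg arrays. The difference between Per1 and the immediate early genes was not tested.

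Of 10 genes that glucocorticoids induce, another input to Per1, 8 had positive log2 differences (median 0.12), 2 had an unadjusted p under 0.05, against the same 7.81%, and limma called 0. The median was 0.055, with 0 under that p, after centring each array on its median, 0.069 without wt 2, 0.078 without Tg 1 and 0.19 without Tg 3. No group of Tg arrays stood apart from the wt arrays in this list. The genes with the highest mean level were Mt1 and Klf9. Klf9, a transcription factor with a daily rhythm in many tissues, averaged 11433 ± 986 (Tg) against 9930 ± 706 (wt) (SD, n = 3), a log2 difference of 0.20 (SE 0.0859, adjusted p = 0.481). Mt1, which encodes a metallothionein, had 12821 ± 4067 and 12877 ± 1456.

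**Figure D5:**
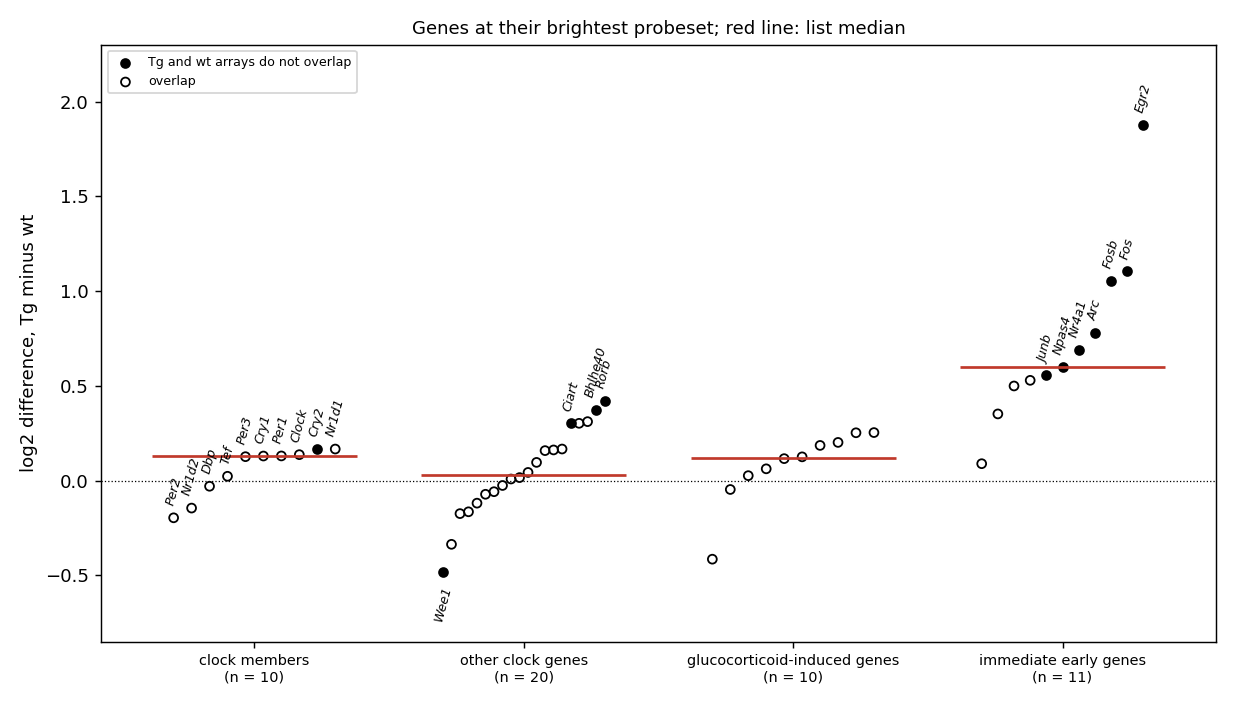
Log2 difference (Tg minus wt) of each gene at its brightest probeset in 4 lists, with filled points where Tg and wt arrays do not overlap and a red line at the list median. The clock genes (median 0.13), the other clock genes (0.030) and the glucocorticoid-induced genes (0.12) lie on both sides of 0, and the immediate early genes (median 0.60) all lie above it.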

How the data were processed

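Total RNA was labelled with the one-cycle protocol and hybridized to 1 Affymetrix GeneChip array per mouse. The deposited intensities are MAS5 signals on a linear scale, 1 per probeset and array, scaled by the authors to a common trimmed mean (MAS5 is named in the submitters' processing notes). RMA values, SAM and Cyber-T lie behind the lists that the study drew up. The scanned images and detection calls were not used here.

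Probesets for controls (64) did not enter the tests. Among those remaining, the dimmest 31% by mean level on the 6 arrays were dropped and 31076 were kept. Tg and wt were compared on log2(signal + 16), which shrinks differences of dim probesets, with limma 3.58.1 in R 4.3.3 (moderated variances with an intensity trend). Adjusted p values are those of Benjamini and Hochberg, taken across the 31076 probesets. SE and intervals come from this fit. Cyber-T took its window as 101 and its confidence as 10. The scripts were tested on simulated data. A gene stands at its brightest kept probeset unless another is named. All clock probesets are named, and in the other lists genes whose groups do not overlap at 1.3-fold or more or, in a list with none, the 2 with the highest level. Arntl, Npas2, Hlf, Bhlhe40 and Ciart fall outside this rule. The genes most like Dbp are the 5 with the highest correlation. Markers of cell types are given by counts and sums, with mean log2 deviations where these overlapped otherwise than the sums. Promoters are RefSeq sequences of GRCm38.p6, with none for Per2 in the table. Figures were drawn with matplotlib 3.10.9.

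The members and lists were chosen with earlier results of these data known. SAM, which relabels arrays, was not run. The alternatives were other added constants, normalizations, filters, variance models, Cyber-T, a block on the replicate number, averaging a gene's probesets, the fold and p parts of the study's threshold, without its limit on the false discovery rate, and leaving out arrays. The number of arrays limits the precision. The p values set the difference between group means against the spread between mice within groups, moderated across probesets.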

Additional observations from a re-analysis of the deposited data

How the results depend on the processing

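No clock probeset was called under any alternative at an adjusted p under 0.05. At 1.3-fold or more with p at most 0.05 before adjustment, which leaves out the study's limit on the false discovery rate, 1 clock probeset (Tef at 1450184_s_at) and 2148 of all kept probesets passed. Over all kept probesets, Cyber-T called 65 and the fit with the replicate number as a block 1, and leaving out each array in turn gave from 0 to 6 (6 without Tg 2). The numbers do not pair the mice: deviations of Tg and wt arrays of the same number correlated at -0.016, 0.0078 and 0.033, and the block called no clock probeset.

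Of 186 tested values of the clock genes under alternatives, 178 kept their direction and 8 turned. The other filters, limma without its trend, Cyber-T and the replicate block left each log2 difference as it was, so values there could not turn. The 186 covered each gene at its brightest probeset or its mean, and Tef also at its second probeset. The remaining kept probesets were not counted. Some of them turned: leaving out arrays took the dimmest kept Per3 probeset from -0.30 to 0.56. Others did not turn. With each array centred on its median, Tef at its brightest probeset was at -0.043. With the mean of all kept probesets, Per2 was at 0.17 and Nr1d2 at 0.069. Leaving out each array in turn gave log2 differences from -0.0031 to 0.28 for Per1, -0.046 to 0.24 for Per3, -0.059 to 0.29 for Clock, -0.078 to 0.050 for Dbp and -0.0073 to 0.044 for Tef. The cause of these turns was not tested beyond the array left out. The number of clock genes with a positive difference was 7, ran from 5 to 8 over the alternatives at the brightest probeset and was 9 with the mean of all kept probesets. With 3 arrays a group, the intervals given hold the differences that are compatible with the values, and dim probesets such as those of Per3 have the widest intervals.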
